A study of Cavia porcellus with 35 samples.

Results

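The genes described here carry out the synthesis, vesicular loading, uptake and breakdown of GABA, the main inhibitory transmitter of the cortex, and form its metabotropic GABA-B receptor. They were chosen by symbol: GAD1, GAD2, SLC32A1, SLC6A11, ABAT, GABBR1 and GABBR2. Of these 7 symbols, 6 were listed in at least 1 of the 4 count tables and 5 were listed in all 4, out of 12100 genes listed in any table. GABBR2 had no row and is not analysed here. SLC6A11 had no row in the F1 female table and was measured in the other groups. RNA had been sequenced from prefrontal cortex of 35 juvenile guinea pigs at day 40, with 1 library per animal. The groups were F1, F2 and F3 females, each with 4 control and 4 sGC animals, and F1 males, with 5 control and 6 sGC animals. The F1 animals were exposed before birth, in late gestation, to the synthetic glucocorticoid betamethasone (sGC) or to saline given to their mothers. F2 and F3 animals were not treated themselves and descended from exposed or control males bred with females from outside the experiment. Female animals of the molecular analysis came from separate litters, and the tissue was a punch of medial prefrontal cortex, so every value is an average over all cells in the punch.

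The glutamate decarboxylases GAD67, encoded by GAD1, and GAD65, encoded by GAD2, make GABA from glutamate. The vesicular transporter VGAT, encoded by SLC32A1, loads it into synaptic vesicles. After release, GABA is taken up by transporters such as GAT-3, encoded by SLC6A11 and found mainly on astrocytes, and GABA transaminase, encoded by ABAT, breaks it down. The GABA-B receptor is a pair of subunits, GABBR1, which binds GABA, and GABBR2, which couples to G proteins. In cortex, GAD1, GAD2 and SLC32A1 mark inhibitory interneurons. Striatal projection neurons are GABAergic too and express the same genes, whereas GABBR1 is expressed widely, in pyramidal neurons and in glia as well.

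Total counts ranged from 12819964 to 19551079 per female library and from 25697953 to 31763585 per male library, and the listed members had between 498 and 19468 reads in each animal. Levels are given as TMM-normalized CPM, read counts scaled to the size and composition of each library within its own table, as mean ± SD. Responses are log2 fold changes of sGC against control animals from edgeR's quasi-likelihood test over all genes of a table, with the standard error (SE) or 95% interval and an FDR adjusted over all genes tested. The tissue label was checked against markers. Summed pyramidal neuron markers reached 1743 to 6429 CPM in each animal. Summed markers of the paraventricular nucleus, which the deposited extraction text names in place of cortex, reached 6.58 to 19.3 CPM. The F1 female controls stood apart in striatal projection neuron markers: controls 1 and 4 had summed levels of 3328 and 3003 CPM, controls 2 and 3 had 862 and 1255, and the F1 sGC females had 452 to 850. The sums add 9 markers in F1 and F3 females, 6 in F2 females and 8 in F1 males, so they compare strictly only within a table. All 27 libraries of the other tables lay between 283 and 1455 CPM. Results of F1 females are therefore also given with controls 1 and 4 left out, an alternative chosen after the data were seen. It does not remove the imbalance, since controls 2 and 3 still lay above every F1 sGC female in these markers. In such punches, fewer cells of a type and less RNA per cell cannot be told apart.

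In F1 females, GAD2, SLC32A1 and ABAT were significantly down-regulated in sGC animals, 3 of the 5 members tested. Over all 11268 genes of that comparison, 7.33% were lower in sGC animals and 16.5% differed in either direction. In F2 females, 0 of 6 members differed (0.278% of 11132 genes). In F3 females, 0 of 6 members differed (1.34% of 11420 genes), although GAD2 and SLC32A1 had an FDR of 0.0565 and 0.0574. This call depended on the test: the likelihood ratio test and DESeq2 each called 4 members in F3 females, GAD1, GAD2, SLC32A1 and ABAT, with an FDR of 0.00069 and 0.000317 for SLC32A1, and 616 and 632 of the 11420 genes. At an unadjusted p under 0.05, 3 members in F2 females and 4 members in F3 females passed, against 16.1% and 17.3% of all genes. In F1 males, GAD1 and GABBR1 were down-regulated, 2 of 6 members, where 3.48% of 11524 genes were lower in sGC animals and 9.22% differed in either direction. The median log2 fold change of the members was -0.47, -0.13, -0.35 and -0.20 in F1, F2 and F3 females and F1 males. The median of all genes was -0.03, 0.01, -0.01 and 0.00.

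**Figure D1:**
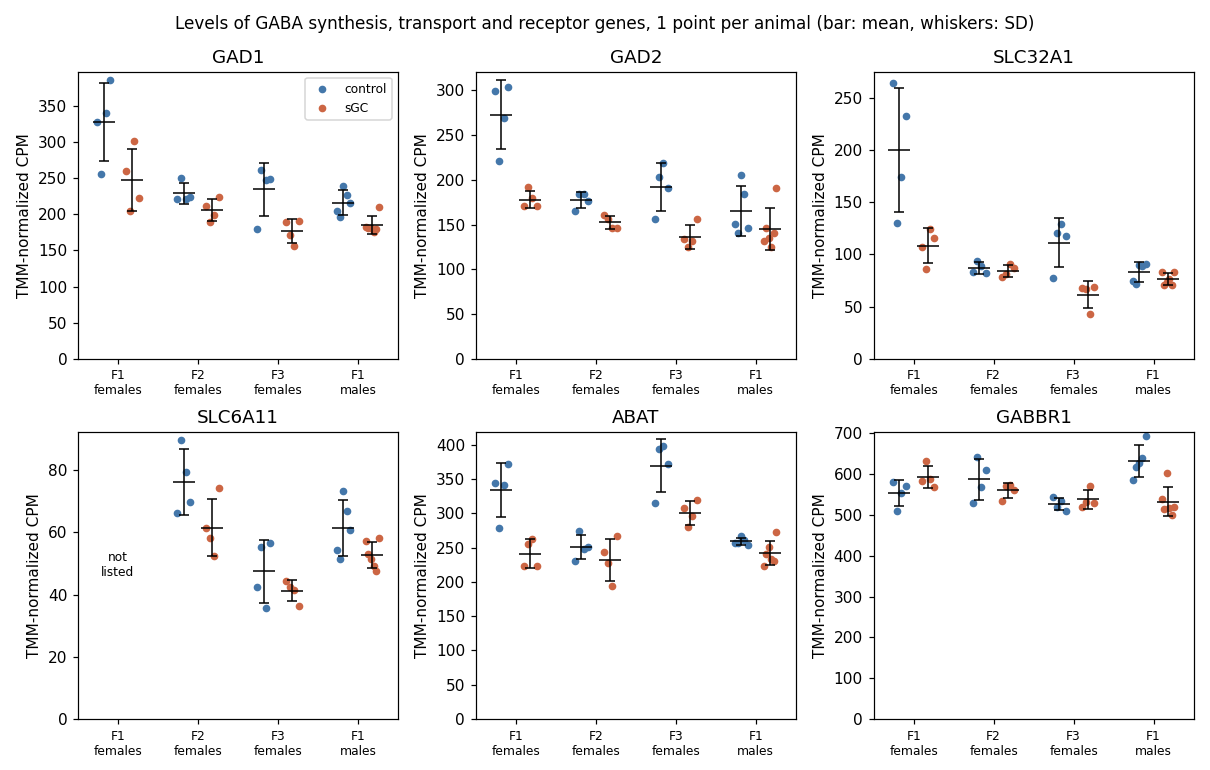
TMM-normalized CPM (vertical axes, starting at 0) of GAD1, GAD2, SLC32A1, SLC6A11, ABAT and GABBR1, with 1 point per animal, the mean as a bar and the SD as whiskers, for control (blue) and sGC (orange) animals of F1, F2 and F3 females and F1 males. Relative to the control mean, the widest gaps between groups are those of SLC32A1 in F1 females, 200 against 108 CPM, and in F3 females, 111 against 61.4 CPM.

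GAD1, the gene of the cytosolic decarboxylase that makes most of the brain's GABA, was at 327, 255, 340 and 386 CPM in the F1 female controls and at 260, 205, 301 and 222 CPM in the sGC females. Group means were 327 ± 54.0 and 247 ± 42.8 CPM, but control 2 lay below sGC animals 1 and 3, so the groups overlapped. The log2 fold change was -0.40 (SE 0.15), with an FDR of 0.0906. It passed without control 2 (FDR 0.0449) and in a single fit of all 8 groups (FDR 0.00804), and with controls 1 and 4 left out it was -0.24 with an FDR of 0.365. In F2 females, GAD1 was at 221, 250, 221 and 223 CPM in controls and at 212, 190, 199 and 223 CPM in sGC animals, a difference of -0.15 (95% interval -0.31 to -0.00, FDR 0.308). The F3 females had 179, 262, 247 and 249 CPM in controls and 190, 171, 156 and 191 CPM in sGC animals. Here control 1 alone lay within the range of the sGC animals, and the other controls lay above all of them. The log2 fold change in F3 was -0.41 (SE 0.12, FDR 0.115), about the size seen in F1.

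In F1 males, GAD1 was at 204, 196, 239, 227 and 215 CPM in controls. The 6 sGC males ranged from 176 to 210 CPM with a median of 181, and sGC animal 6 alone reached into the range of the controls. By this test GAD1 was down-regulated, at 216 ± 17.1 CPM in controls and 185 ± 12.4 CPM in sGC males, a response of -0.22 on the log2 scale (SE 0.06, FDR 0.0293). The call was lost in a single fit of all 8 groups (FDR 0.163) and when control 3 (FDR 0.0767), control 4 (0.0753) or any of sGC animals 1 to 5 was left out (0.0600 to 0.0736), and the log2 fold change then lay between -0.22 and -0.19.

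GAD2 encodes the membrane-bound decarboxylase of axon terminals. Its F1 female controls had 299, 220, 269 and 304 CPM and its sGC females 171, 192, 179 and 170 CPM. Every sGC animal lay below every control, as it did for 11.2% of all genes in this comparison. GAD2 was down-regulated, averaging 273 ± 38.2 CPM in the controls against 178 ± 9.93 CPM in the sGC females, a response of -0.62 on the log2 scale (SE 0.10, FDR 0.00721). The call held with each of the 8 animals left out in turn, and with controls 1 and 4 left out (-0.44, FDR 0.0272).

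In F2 females, GAD2 was at 165, 184, 184 and 176 CPM in controls and at 161, 157, 147 and 146 CPM in sGC animals. The groups did not overlap, with all sGC animals below all controls, as for 4.02% of genes. The difference was smaller, -0.21 (SE 0.06), and did not pass at an FDR of 0.121, although DESeq2 called it (FDR 0.0388). In F3 females the controls had 156, 203, 219 and 190 CPM and the sGC animals 134, 125, 131 and 156 CPM. All sGC animals again lay below all controls, though control 1 and sGC animal 4 nearly met, and 4.35% of genes were arranged in this way. The log2 fold change was -0.49 (SE 0.11, FDR 0.0565), and without control 1 it was -0.58 with an FDR of 0.0083. With any other F3 animal left out, GAD2 did not pass. In F1 males GAD2 was at 150, 141, 205, 184 and 146 CPM in controls, and at 125 to 191 CPM with a median of 138 in sGC animals. These groups overlapped widely, and the difference of -0.19 (95% interval -0.44 to 0.07, FDR 0.362) was within the spread.

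SLC32A1, the vesicular GABA transporter, had the most negative log2 fold change of the members in both F1 and F3 females. Its F1 controls had 264, 130, 174 and 232 CPM and its F1 sGC females 107, 85.5, 125 and 116 CPM. All sGC animals lay below all controls, and the controls were spread over a 2-fold range. The means were 200 ± 59.4 and 108 ± 16.8 CPM, and the gene was down-regulated with a response of -0.89 on the log2 scale (SE 0.21, FDR 0.0254). The call was lost without control 3 (FDR 0.0541), control 4 (0.0618), sGC animal 1 (0.0685), sGC animal 2 (0.0531) or sGC animal 4 (0.0517). With controls 1 and 4 both left out, which had the highest SLC32A1 levels as well as the highest striatal marker sums, the log2 fold change was -0.47 with an FDR of 0.0935.

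In F3 females, SLC32A1 was at 76.9, 121, 129 and 118 CPM in controls and at 68.1, 66.7, 42.6 and 68.3 CPM in sGC animals. Every sGC animal lay below every control, and sGC animal 3 was the lowest of all 35 animals. With means of 111 ± 23.3 and 61.4 ± 12.6 CPM, the response was -0.85 on the log2 scale (SE 0.19) at an FDR of 0.0574. It was -0.99 with an FDR of 0.00835 when control 1 was left out, and did not pass with any other F3 animal left out. No gap between the groups appeared in F2 females. Their controls had 83.0, 93.8, 89.2 and 81.9 CPM and their sGC animals 78.1, 81.4, 90.7 and 86.8 CPM. Their difference was -0.05 (95% interval -0.20 to 0.11, FDR 0.800). F1 male controls had 74.1, 71.5, 89.4, 88.8 and 91.0 CPM and sGC males 70.8 to 83.5 CPM with a median of 74.8. These ranges overlapped, with a difference of -0.12 (95% interval -0.28 to 0.04, FDR 0.350).

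Reads of SLC32A1 were also set against those of GAD1 in the same animal, which needs no scaling between libraries. In F1 females there were 0.607 ± 0.139 SLC32A1 reads per GAD1 read in controls and 0.440 ± 0.0532 in sGC animals, with ranges of 0.510 to 0.805 and 0.409 to 0.520. In F3 females the values were 0.471 ± 0.0390 and 0.345 ± 0.0502, with ranges of 0.429 to 0.523 and 0.273 to 0.390, which did not overlap. In F2 females and F1 males the ratio was higher in sGC animals on average, 0.380 against 0.411 and 0.383 against 0.413. These ratios are given as a description, with no test.

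ABAT, the mitochondrial enzyme that degrades GABA, was at 345, 279, 341 and 371 CPM in the F1 female controls and at 224, 256, 262 and 224 CPM in the sGC females. All sGC animals lay below all controls. The enzyme was down-regulated, with means of 334 ± 39.3 and 241 ± 20.5 CPM and a response of -0.47 on the log2 scale (SE 0.10, FDR 0.0160). The call was lost without control 3 (FDR 0.0574) or sGC animal 1 (0.0515), and with controls 1 and 4 left out (-0.34, FDR 0.0733). In F3 females ABAT was at 315, 394, 398 and 371 CPM in controls and at 308, 280, 296 and 320 CPM in sGC animals. Control 1 lay just below sGC animal 4, and the other controls were higher than all sGC animals. The F3 response was -0.30 on the log2 scale (SE 0.08, FDR 0.0988), and -0.37 with an FDR of 0.0128 without control 1. With any other F3 animal left out, ABAT did not pass.

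In F2 females, ABAT had 230, 274, 248 and 251 CPM in controls and 243, 227, 194 and 266 CPM in sGC animals. These ranges overlapped, with sGC animals 2 and 3 below every control (-0.11, 95% interval -0.32 to 0.10, FDR 0.609). In F1 males ABAT had 256, 257, 268, 261 and 254 CPM in controls, the narrowest spread of any member, and 224 to 273 CPM with a median of 238 in sGC animals. Of the sGC males, 5 of 6 lay below every control. The difference was -0.10 (95% interval -0.20 to 0.01, FDR 0.225), and without sGC animal 6 it was -0.14 with an FDR of 0.0324.

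SLC6A11, the astrocytic GABA transporter, had the lowest CPM of the members. In F2 females it was at 66.3, 89.6, 79.3 and 69.8 CPM in controls and at 61.3, 58.3, 52.4 and 74.3 CPM in sGC animals, where only sGC animal 4 reached the controls. Its response of -0.31 on the log2 scale (SE 0.12) had an FDR of 0.237. In F3 females the controls had 42.4, 55.3, 35.8 and 56.6 CPM and the sGC animals 44.5, 42.5, 41.6 and 36.4 CPM, within the range of the controls (-0.20, 95% interval -0.52 to 0.11, FDR 0.503). In F1 males the controls had 54.3, 51.5, 73.5, 66.9 and 60.9 CPM and the sGC animals 47.5 to 58.1 CPM with a median of 52.2, and the difference of -0.22 (SE 0.09) had an FDR of 0.137. The estimate for this transporter was thus negative in the 3 groups in which it was measured and passed the test in none of them, with 2 of the 3 unadjusted p-values at 0.0243 and 0.0262.

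GABBR1, the GABA-binding subunit of the GABA-B receptor, had a different pattern from the other members. In F1 males it was at 586, 618, 628, 640 and 693 CPM in controls and at 501 to 603 CPM with a median of 519 in sGC animals. sGC animal 3 was above the lowest control, and the other 5 sGC males lay below all controls. GABBR1 was down-regulated, with means of 633 ± 39.1 and 533 ± 36.5 CPM and a response of -0.25 on the log2 scale (SE 0.05, FDR 0.0137), and the call held with each of the 11 males left out in turn.

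In the females GABBR1 did not pass in any generation. In F1 it was at 582, 510, 554 and 572 CPM in controls and at 584, 632, 589 and 569 CPM in sGC animals (0.10, 95% interval -0.04 to 0.23, FDR 0.270). In F2 the controls had 528, 642, 568 and 610 CPM and the sGC animals 535, 571, 574 and 562 CPM (-0.07, 95% interval -0.22 to 0.09, FDR 0.688). In F3 they had 544, 519, 535 and 510 CPM and 520, 532, 572 and 531 CPM (0.03, 95% interval -0.08 to 0.14, FDR 0.807). A drop of GABBR1 as large as the estimate for the males, -0.25 (95% interval -0.37 to -0.13), lay outside the 95% interval in each female generation. The interval of F2 females overlapped that of the males. A test against the males was run for F1 females only.

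**Figure D2:**
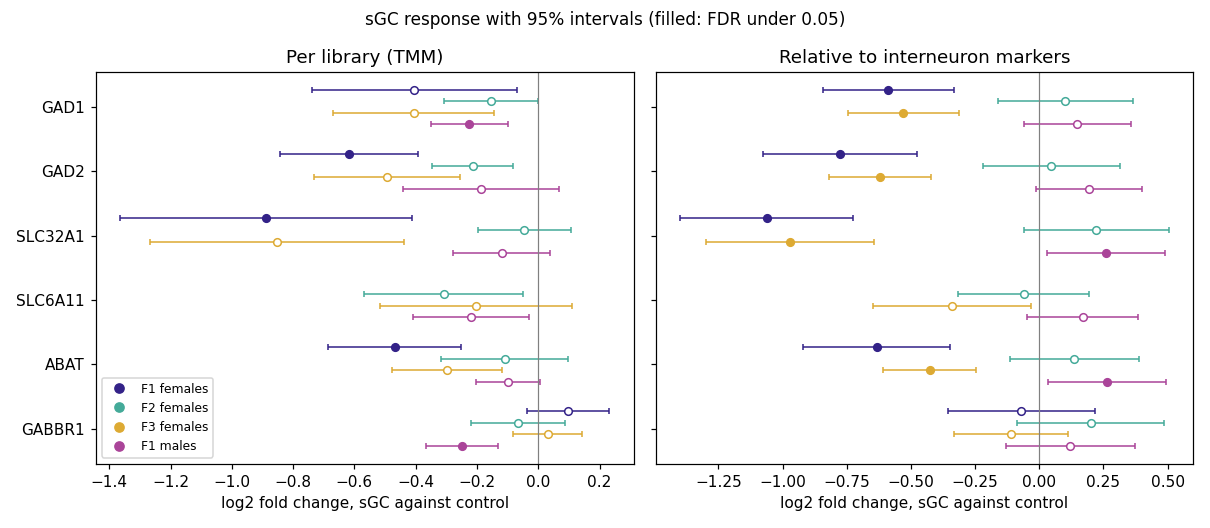
Log2 fold change of sGC against control animals (horizontal axes) with 95% intervals for 6 genes in F1, F2 and F3 females and F1 males, after TMM normalization (left) and relative to interneuron markers (right); filled points have an FDR under 0.05. GAD1, GAD2, SLC32A1 and ABAT lie furthest below 0 in F1 and F3 females in both panels. In the right panel the F2 female and F1 male points of these genes lie above 0. Some, but not all, other references turned them below 0. For SLC32A1 and ABAT in F1 males only the reference of DLX1, DLX2 and DLX5 did so.

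To set the GABA genes against other genes of interneurons, each library was next scaled by the geometric mean of its interneuron markers in place of TMM. This reference is marker RNA and not a number of cells. It holds no marker of striatal projection neurons or astrocytes, which also express some of the members. The markers were LHX6, NXPH1, PVALB, SST, NPY and LAMP5 in all tables, with ADARB2, VIP and CALB2 where they were tested, 8 in F1, 9 in F2 and 7 in F3 females and 9 in F1 males. Relative to these markers, GAD1, GAD2, SLC32A1 and ABAT were lower in F1 sGC females, 4 of 5 members, where 3.8% of all genes were lower and 4.45% differed in either direction. The same 4 genes were lower in F3 sGC females, 4 of 6 members, where 2.4% of all genes were lower and 2.76% differed in either direction. In F2 females 0 of 6 members differed (10.8% of all genes). In F1 males SLC32A1 and ABAT were higher relative to the markers, 2 of 6 members, where 68.4% of all genes were higher and 68.7% differed in either direction, so the share of members called was below that of all genes. With DLX1, DLX2 and DLX5 as the reference, the estimates turned positive for GAD1, GAD2, ABAT and GABBR1 in F1 females and for all 6 members in F3 females, and negative for all 6 in F1 males.

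SLC32A1 reads per marker were 5.23, 3.07, 3.67 and 4.40 in the F1 female controls and 1.92, 1.89, 2.004 and 2.03 in the sGC females. The groups did not overlap and the sGC animals were close together. The log2 fold change relative to the markers was -1.06 (FDR 0.0104), and -0.78 (FDR 0.0193) with controls 1 and 4 left out. In F3 females the values were 2.05, 2.63, 2.82 and 2.77 in controls and 1.43, 1.46, 0.902 and 1.44 in sGC animals, again without overlap (-0.97, FDR 0.00856). For GAD2 the F1 values were 5.93, 5.20, 5.67 and 5.75 in controls and 3.08, 4.23, 2.88 and 2.98 in sGC animals (-0.77, FDR 0.0158). The F3 values of GAD2 were 4.17, 4.41, 4.78 and 4.49 in controls and 2.82, 2.74, 2.78 and 3.28 in sGC animals (-0.62, FDR 0.00844). Every sGC animal lay below every control in both generations for SLC32A1 and GAD2, as for 12.5% of all genes in F1 and 14.6% in F3 females.

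GAD1 relative to the markers was lower, with a log2 fold change of -0.59 (FDR 0.0241) in F1 and -0.53 (FDR 0.0172) in F3 females, and ABAT was lower too, with -0.63 (FDR 0.0277) and -0.43 (FDR 0.0213), each without overlap between the groups. All 4 calls of F1 females held with controls 1 and 4 left out (FDR 0.0193 to 0.0478), while 0 of them held without sGC animal 1 (FDR 0.0642 to 0.112). GAD1 and ABAT also lost their F1 calls without control 3 (FDR 0.0850 and 0.0821), control 4 (0.0516 for both) or sGC animal 4 (0.0833 and 0.0874). In F3 females the calls of GAD2 and SLC32A1 held with each animal left out in turn. The call of GAD1 was lost without control 4 (FDR 0.0696), sGC animal 2 (0.0544) or sGC animal 3 (0.0666). ABAT lost its call without control 2 (0.0513), control 4 (0.0894) or sGC animal 2, 3 or 4 (0.0582 to 0.0817). In F1 males the log2 fold changes relative to the markers were 0.15 for GAD1, 0.19 for GAD2, 0.26 for SLC32A1 (FDR 0.0440), 0.17 for SLC6A11, 0.26 for ABAT (FDR 0.0394) and 0.12 for GABBR1. With 1 of the 11 males left out, the call of SLC32A1 was lost in 6 fits (FDR 0.0567 to 0.112) and that of ABAT in 7 (0.0579 to 0.106), and neither passed with any other marker reference. In F2 females they ranged from -0.06 for SLC6A11 to 0.22 for SLC32A1.

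The markers did not move together, which bears on these ratios. In F1 females NPY, a neuropeptide of several interneuron types, was lower (-0.37, FDR 0.0077), whereas the estimate for PVALB, the calcium-binding protein of fast-spiking basket cells, was 0.82 with an FDR of 0.136. In F3 females PVALB was higher (0.92, FDR 0.0092). In F1 males CALB2, which encodes calretinin, was lower (-1.44, FDR 0.0262), as was SST, which encodes somatostatin (-0.54, FDR 0.0345). In F2 females 0 of 9 markers passed, with estimates of -1.71 for CALB2 (FDR 0.0886) and -0.80 for VIP (FDR 0.0578). The geometric mean of the markers was 42.4 to 52.8 CPM in F1 female controls and 45.3 to 62.2 CPM in sGC animals, and 37.4 to 46.0 and 45.6 to 47.6 CPM in F3 females. In F2 females it was 50.0 to 56.8 and 37.4 to 50.6 CPM, and in F1 males 42.8 to 60.4 and 35.1 to 43.5 CPM. LHX6, the transcription factor that marks interneurons from the medial ganglionic eminence, had an estimate of 0.06 in F1 and 0.31 in F3 females and did not pass. With LHX6 as the only reference, 1 member was called in F1 females, SLC32A1, where 229 of 11268 genes were called. In F3 females 5 of 6 were called, the same 4 and SLC6A11 (-0.51, FDR 0.0411), where 986 of 11420 genes were called.

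**Figure D3:**
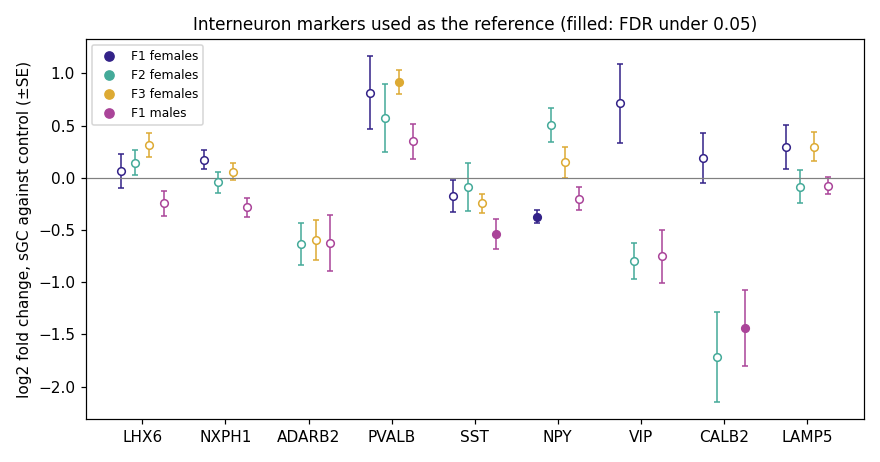
Log2 fold change of sGC against control animals with its SE (vertical axis) for 9 interneuron markers (horizontal axis) in F1, F2 and F3 females and F1 males; filled points have an FDR under 0.05. The markers differ in direction within a group, with PVALB above 0 in all 4 groups and CALB2 and VIP below 0 in F2 females and F1 males.

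Whether the response differed between groups was tested directly as an interaction, for 4 pairs of groups. Between F1 females and F1 males, 3 of 5 members differed, where 31.7% of all genes did. The male log2 fold change minus the female one was 0.76 (SE 0.21, FDR 0.0110) for SLC32A1, 0.36 (SE 0.10, FDR 0.0128) for ABAT and -0.35 (SE 0.08, FDR 0.00386) for GABBR1. The response of SLC32A1 and ABAT was thus more negative in females, and that of GABBR1 more negative in males. These 3 calls held with each of the 19 animals left out in turn. With F1 female controls 1 and 4 both left out, GABBR1 remained (-0.42, FDR 0.00249), and SLC32A1 (0.36, FDR 0.116) and ABAT (0.25, FDR 0.0898) did not pass. GAD1 (0.17, 95% interval -0.15 to 0.49) and GAD2 (0.42, 95% interval 0.05 to 0.79, FDR 0.0758) did not pass. The male libraries were counted in a separate table at greater depth, so sex and library set cannot be told apart.

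Between F1 and F2 females, 2 of 5 members differed, where 13.8% of all genes did. The F2 log2 fold change minus that of F1 was 0.84 (SE 0.24, FDR 0.0303) for SLC32A1 and 0.40 (SE 0.12, FDR 0.0403) for GAD2. Neither passed with F1 controls 1 and 4 left out (0.42, FDR 0.106, and 0.22, FDR 0.178). Leaving out 1 animal at a time, SLC32A1 was lost without F1 control 4, F1 sGC animal 1, F2 control 1, 3 or 4, or F2 sGC animal 4 (FDR 0.0511 to 0.0580). GAD2 kept its call only without F1 control 2, F1 sGC animal 2 or F2 sGC animal 3, and had an FDR of 0.0539 to 0.0888 without any other animal. Between F1 and F3 females, 0 of 5 members differed (0.0981% of all genes), with differences of 0.02 (95% interval -0.63 to 0.66) for SLC32A1, 0.10 (-0.22 to 0.43) for GAD2, -0.02 (-0.45 to 0.41) for GAD1 and 0.15 (-0.12 to 0.43) for ABAT. These intervals are wide enough to hold differences as large as many of the responses themselves. Between F2 and F3 females, 0 of 6 members differed (0.018% of all genes), and SLC32A1 had a difference of -0.81 (SE 0.21, unadjusted p 0.00125 and FDR 0.153 in edgeR's quasi-likelihood test). Without F3 control 1 its difference was -0.93 with an FDR of 0.0292, and it did not pass with any other animal left out.

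Levels were also put on 1 scale by normalizing all 35 libraries together, as a description, since the tables were counted separately. SLC32A1 was highest in F1 female controls (210 ± 63.5 CPM), which did not overlap the next group, F1 sGC females (114 ± 17.4 CPM). It was lowest in F3 sGC females (57.9 ± 12.02 CPM), which did not overlap the F1 sGC males above them (80.6 ± 6.14 CPM). The groups in between overlapped their neighbours in the order. GAD2 had the same ends, with F1 female controls (286 ± 41.7 CPM) apart from F1 sGC females (187 ± 11.4 CPM), and F3 sGC females lowest (129 ± 12.6 CPM), overlapping F1 sGC males (153 ± 25.2 CPM). GAD1 ran from 343 ± 58.2 CPM in F1 female controls to 167 ± 16.1 CPM in F3 sGC females, and only the latter group lay apart from its neighbour. ABAT ran from 350 ± 43.0 CPM in F1 female controls, followed by F3 controls (344 ± 32.8 CPM), to 242 ± 31.3 CPM in F2 sGC females, and every neighbouring pair overlapped. GABBR1 was highest in F1 male controls (669 ± 40.2 CPM) and lowest in F3 female controls (491 ± 17.6 CPM), also with overlap between all neighbours. The F1 female controls were thus the group with the highest level of GAD1, GAD2, SLC32A1 and ABAT.

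The striatal markers moved with these genes. In F1 females 6 of 9 tested striatal projection neuron markers were lower in sGC animals, with a list median of -2.30 against -0.03 over all genes. They included SIX3 (-3.82), a transcription factor of these neurons, PENK (-2.37), which encodes proenkephalin, and PPP1R1B (-2.30), which encodes DARPP-32. In F3 females 0 of 9 passed, all 9 estimates were negative with a median of -0.74, and summed levels were 577 to 1455 CPM in controls and 361 to 735 CPM in sGC animals. F3 control 1 was the control lowest in GAD1, GAD2, SLC32A1 and ABAT. This animal was also the F3 control lowest in striatal markers, at 577 CPM, and highest in oligodendrocyte markers, at 6972 CPM. In F2 females 1 of 6 striatal markers was higher, DRD1, a dopamine receptor gene (0.96, FDR 0.0443), with sums of 317 to 374 and 310 to 406 CPM. In F1 males 0 of 8 passed, with sums of 283 to 321 and 302 to 330 CPM. The 2 comparisons with the most negative SLC32A1 estimates were therefore those with lower striatal marker sums in sGC animals. The part of these cells in the result was not tested.

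**Figure D4:**
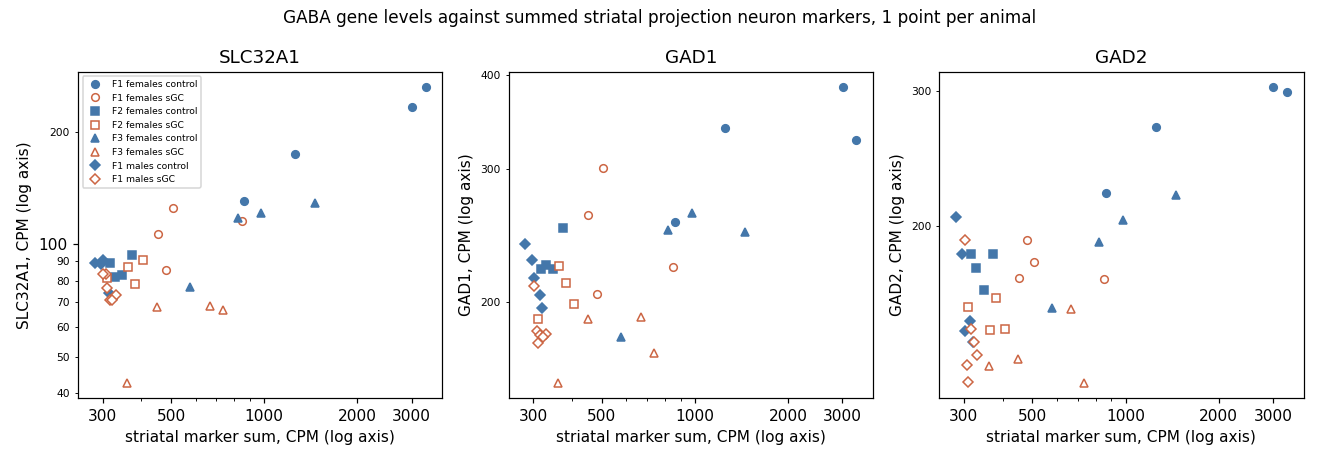
CPM of SLC32A1, GAD1 and GAD2 (vertical axes, log scale) against the summed CPM of striatal projection neuron markers (horizontal axes, log scale), with 1 point per animal, filled for control and open for sGC, and a symbol per group. F1 female controls 1 and 4, at 3328 and 3003 CPM of striatal markers, had the highest SLC32A1 levels, 264 and 232 CPM. The F2 female and F1 male points lie together at the left. Their sums add 6 and 8 markers, against 9 in F1 and F3 females.

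Within groups, that is after subtraction of each group's own mean, log2 CPM of SLC32A1 followed the mean of the 6 striatal markers tested in all tables with Pearson's r = 0.73 and Spearman's rho = 0.47 over 35 animals. Without F1 females r was 0.60 over 27 animals, and without the 2 animals farthest from the median of the striatal score it was 0.61. The same r was 0.39 for GAD1, 0.34 for GAD2, 0.27 for ABAT and 0.06 for GABBR1. With oligodendrocyte markers r was -0.61 for GAD2, -0.58 for ABAT, -0.54 for GAD1, -0.49 for SLC32A1 and -0.10 for GABBR1. With the 6 interneuron markers r was 0.62 for GAD1, 0.47 for SLC32A1, 0.32 for ABAT, 0.17 for GAD2 and -0.18 for GABBR1. These values share library normalization and are a description only. Among the members, GAD1 and SLC32A1 were most alike within groups (r = 0.77), followed by GAD1 with ABAT (0.70), GAD2 with ABAT (0.67) and GAD1 with GAD2 (0.62), whereas GABBR1 had r of 0.04 to 0.26 with the others. The genes most like each member, among 10720 others, were GAS2L2, ECE2 and SPTB for GAD1 (r = 0.79, 0.79 and 0.78), PLPPR1, ARL15 and KCND3 for GAD2 (0.83, 0.82 and 0.81), and ESR2, Htr4 and FBXL16 for SLC32A1 (0.87, 0.87 and 0.86). They were SLC10A4, PAM and FNBP1L for ABAT (0.77, 0.75 and 0.75), and CCHCR1, PROSER2 and ADCY4 for GABBR1 (0.60, 0.56 and 0.56). For SLC6A11, over 27 animals, they were GLDC, which encodes the glycine cleavage enzyme found in astrocytes, PLCH2 and C12orf57 (0.86, 0.85 and 0.85).

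Other cell types differed in these groups as well. All 6 pyramidal neuron markers tested had positive estimates in F1 females, of which 6 had an unadjusted p under 0.05 by the quasi-likelihood method and 0 an FDR under 0.05, with a median of 1.96 and sums of 1743 to 3079 CPM in controls and 3072 to 6429 CPM in sGC animals. In F3 females all 6 were positive, 0 passed, and sums were 1977 to 2041 and 2478 to 2740 CPM. In F2 females the sums were 3880 to 4087 and 3621 to 4015 CPM, and in F1 males 3789 to 4525 and 3334 to 3809 CPM. Astrocyte markers were lower for 4 of 8 genes in F1 females, among them the water channel AQP4 (-0.92), the gap junction gene GJA1 (-0.53) and FGFR3 (-0.30). In F1 males all 6 oligodendrocyte markers tested were higher, led by MAG (1.08), CLDN11 (1.01) and MOG (0.99), with sums of 3418 to 6497 CPM in controls and 7287 to 12483 CPM in sGC animals. In F2 females 0 of these 6 passed, all estimates were positive with a median of 1.06, and sums were 3181 to 4923 and 4719 to 11081 CPM. In F1 females 0 of 6 passed, all estimates were negative with a median of -0.72, and sums were 4557 to 15389 and 3570 to 7194 CPM. In F3 females 0 of 5 passed, with a median of 0.34 and sums of 2668 to 6972 and 4622 to 6675 CPM. Of the transcription factors of forebrain GABAergic neurons, DLX5 was lower in F1 females (-1.64, FDR 0.0183), and 0 of 3 passed in the other groups. The part of these cell types in the response of the GABA genes was not tested.

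The other genes of the GABA pathway were taken from a list of related transporters, enzymes and receptor partners. In F1 females 6 of 18 were higher and 2 were lower, with a median of 0.03. Over all genes of that comparison 7.33% were lower and 16.5% differed in either direction. KCNJ3 (1.07, FDR 0.0039) and KCNJ9 (0.46, FDR 0.0214), which encode channel subunits that GABA-B receptors open through G proteins, were up-regulated. KCTD8, an auxiliary subunit of GABA-B receptors (-1.26, FDR 0.0428), and ALDH9A1 (-0.34, FDR 0.0409), an aldehyde dehydrogenase, were lower.

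In F2 females 0 of 17 of these genes passed (0.278% of all genes). GLUL, the glutamine synthetase of astrocytes, had an estimate of 0.26 (FDR 0.135) and KCTD16, another auxiliary subunit, one of -0.42 (FDR 0.362). In F3 females 0 of 16 passed (1.34% of all genes). At an unadjusted p under 0.05 in the quasi-likelihood test 7 passed, against 17.3% of all genes. KCNJ9 (0.22, FDR 0.0674) had the smallest FDR, with the same sign as in F1 females. In F1 males 2 of 17 were higher and 1 was lower, where 3.48% of all genes were lower and 9.22% differed in either direction. ALDH9A1 (0.23, FDR 0.0056) and SLC38A3 (0.36, FDR 0.0073), a glutamine transporter of astrocytes, rose, and SLC38A1 (-0.18, FDR 0.0348), a glutamine transporter of neurons, fell. ALDH9A1 thus passed with opposite signs in F1 females and F1 males.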

How the data were processed

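For each of the 4 groups the authors deposited whole-number read counts per gene symbol, with no normalization. The submitters' processing notes name TopHat2 and edgeR, and the genome build and read counter are not given in the sources used here. Beside the counts, the authors deposited their log2 fold changes and log2 mean CPM, a likelihood ratio score, p-values and FDR of sGC against control animals, and none of these was used.

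The statistics were run with edgeR 4.0.16 (on limma 3.58.1) under R 4.3.3, and DESeq2 1.42.0 served as an alternative. Low-count genes were removed with filterByExpr (minimum count 10, minimum total 15), normalized by TMM and compared within each table by the quasi-likelihood test, with Benjamini-Hochberg adjustment over all genes tested and a threshold of 0.05. The study itself had used the likelihood ratio test. For levels relative to interneuron markers, each library was scaled by the geometric mean of its marker counts plus 0.5 and the fit was repeated. Differences in response were tested as interactions. Fits were tested on simulated data. Replicate pairs differed by more than sampling noise (61 pairs, chi-square per degree of freedom 2.84 to 51.5). Counting precision is that of the reads given. Symbols alone identify genes, so reads shared by paralogs or by overlapping genes cannot be told apart, and no coordinates are given.

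The members and lists were chosen with earlier results of these data known. Genes were named by rule: the 7 members, pathway genes with the smallest FDR (at most 4 and at least 2 per table), up to 3 markers per list past the threshold with the largest change, and the 3 genes most like each member. Some pathway genes that the rule names are not reported here. KCTD8 and the markers quoted with an FDR above 0.05 were added after their values were seen, as were ALDH9A1 in F1 females and LHX6. The settings varied were the test (likelihood ratio, DESeq2), the normalization (upper quartile, RLE), the low-count filter (none, or CPM above 1), a replicate block, 1 fit of all 8 groups, the reference of the marker ratio, and leaving out each animal.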

Additional observations from a re-analysis of the deposited data

Results flagged for a closer look

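Of 46 groups of members and animals, 4 held an animal far from the rest of its group, where chance gives about 1 in 20. GAD1 was at 250.3 CPM in F2 female control 2, against 220.7 to 223.4 CPM in the other controls. SLC32A1 was at 42.59 CPM in F3 female sGC animal 3, against 66.7 to 68.32 CPM in the others. F1 male sGC animal 6 was high in both decarboxylases, with GAD1 at 209.9 CPM against 176.1 to 182.5 CPM and GAD2 at 191.3 CPM against 125 to 146.4 CPM.

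Of 21 interactions tested, 5 passed the quasi-likelihood test at an FDR under 0.05. The male minus the female response in F1 animals was 0.76 for SLC32A1, 0.36 for ABAT and -0.35 for GABBR1. In this pair of groups 31.7% of all genes passed. The F2 minus the F1 female response was 0.40 for GAD2 and 0.84 for SLC32A1. In that pair 13.8% of all genes passed. With F1 female controls 1 and 4 left out, the interaction of GABBR1 alone passed.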

How the results depend on the processing

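With normalization by RLE or upper quartile, without the filter or with a filter of CPM above 1, each count of members called stayed within 1.5-fold of the value reported. DESeq2 called 1 member in F2 females (GAD2) and, like the likelihood ratio test, 4 members in F3 females (GAD1, GAD2, SLC32A1 and ABAT), where the quasi-likelihood test called 0. Both also called 1 member in the interaction of F2 with F3 females (SLC32A1, FDR 0.0284 and 0.0283). A single fit of all 8 groups called 3 members in F3 females (GAD1, GAD2 and SLC32A1) and 1 in F1 males, and GAD1 passed in F1 females (-0.40, FDR 0.00804). With F1 female controls 1 and 4 left out, the count was 1 in F1 females, 1 in the interaction with F1 males and 0 in that with F2 females, and the interactions with F3 females turned to -0.053 for GAD2 and -0.38 for SLC32A1. Whether the striatal markers or the smaller number of controls lies behind this was not tested.

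The counts relative to interneuron markers depended on the reference. In F1 females, 4 members were called with the geometric mean, 2 with the sum of the markers and 1 with LHX6 alone. With DLX1, DLX2 and DLX5 it was 0, and 2 with the 6 markers tested in all tables, a reference chosen after the data were seen. Of all 11268 genes, 501, 351, 229, 229 and 322 were called with these references, in the same order. In F3 females, where 4 members were lower, the count was 4 with the sum and 5 with LHX6 (SLC6A11 added, 986 of 11420 genes called). It was 6 with the common markers (SLC6A11 and GABBR1 added, 5712 of 11420 genes called). With the DLX genes it was 2, SLC6A11 (FDR 0.0337) and GABBR1 (FDR 0.00827), both higher in sGC animals. In F1 males it was 0 with the sum, LHX6, the DLX genes, the common markers and the replicate block, against 2. Of all 11524 genes, 6034, 1040, 139, 3366 and 7813 were called with these, in the same order, against 7916. Some directions turned as well. With the DLX genes, the F1 female values were 0.23 for GAD1, 0.033 for GAD2, 0.16 for ABAT and 0.72 for GABBR1. The F3 female values were then 0.51 for GAD1, 0.43 for GAD2, 0.092 for SLC32A1, 0.66 for SLC6A11, 0.61 for ABAT and 0.93 for GABBR1, with 10396 of 11420 genes called. The F1 male values were -0.23 for GAD1, -0.18 for GAD2, -0.12 for SLC32A1, -0.21 for SLC6A11, -0.12 for ABAT and -0.27 for GABBR1, and GAD2 in F2 females was -0.015. With LHX6 alone, GABBR1 in F1 females was 0.067, and F2 females had -0.30 for GAD1, -0.35 for GAD2, -0.18 for SLC32A1, -0.26 for ABAT and -0.20 for GABBR1. With the common markers, GABBR1 in F1 females was 0.014, F2 females had -0.315 for GAD1, -0.37 for GAD2, -0.20 for SLC32A1, -0.27 for ABAT and -0.22 for GABBR1, and F1 males had -0.064 for GAD1, -0.033 for GAD2, -0.0565 for SLC6A11 and -0.081 for GABBR1. With the sum, GAD1 and GAD2 in F2 females were -0.016 and -0.0715 and GABBR1 in F1 males was -0.014.

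Leaving out each animal in turn, the number of members called ranged from 1 to 4 in F1 females, 0 to 0 in F2 females, 0 to 4 in F3 females and 1 to 3 in F1 males. Relative to interneuron markers it ranged from 0 to 4, 0 to 0, 2 to 5 and 0 to 2. The interactions ranged from 3 to 4 for F1 females with F1 males, 0 to 3 for F1 with F2, 0 to 0 for F1 with F3 and 0 to 1 for F2 with F3 females. Near 0, the sign turned for GAD2 relative to markers in F2 females (-0.024 to 0.12) and for the F1 with F3 differences of GAD1 (-0.13 to 0.12) and SLC32A1 (-0.14 to 0.17). The difference of GAD1 was 0.0087 with upper-quartile normalization.

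Animals of the 2 arms share replicate numbers, and the sources used here do not say whether the numbers pair them. Same-numbered animals had correlations of -0.33 to 0.34 in their deviations from the group means, which cannot decide this. With the replicate block, 1 member was called in F1 males (GAD1, while GABBR1 had an FDR of 0.0522), 0 relative to markers in F1 males (SLC32A1 0.0967, ABAT 0.0940), 2 in the interaction of F1 females with F1 males (SLC32A1 and GABBR1, while ABAT had an FDR of 0.0566) and 1 in that of F1 with F2 females (SLC32A1). The F1 with F3 difference of SLC32A1 was -0.017. The counts of the other comparisons were the same with the block.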
